A study of Mus musculus with 6 samples.

Results

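The cytosolic ribosomal protein genes were analysed in whole B16-F10 tumors, which grow from a murine melanoma line, as 77 of the 21358 entries of the expression table. Members were all entries named *Rpl* or *Rps* followed by a number or by the letters of the stalk proteins and *Rpsa*, without pseudogenes and without entries that carry a copy number. They comprised 46 proteins of the large subunit and 31 of the small subunit. Bulk RNA-seq was available from 6 tumors collected on day 12, 1 library from each of 3 mice per group. All hosts were C57BL/6 mice that had received total body irradiation and then adoptive cell transfer (ACT) with T cells of the pmel-1 strain, whose transgenic receptor recognises the melanoma antigen gp100. The ACT + IL-2 group was dosed with recombinant IL-2 (0.4 mg/kg) daily for the first 3 days of each 9-day cycle. The ACT + NKTR-214 group received NKTR-214 at 0.8 mg/kg once per cycle. NKTR-214 is IL-2 carrying releasable polyethylene glycol chains, which favours the IL-2Rβγ receptor over the form with the alpha chain. The question addressed was whether the messages for the protein part of the ribosome differed between tumors under the 2 cytokines. The tumors mixed melanoma cells, infiltrating immune cells and host stroma, and a change in the number of cells of one type and a change in the RNA of each cell cannot be told apart.

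The ribosome is the particle that translates mRNA into protein. Its small subunit decodes the message and its large subunit joins the amino acids, and each protein is present once per particle apart from the stalk proteins. Most ribosomal protein mRNAs start with a terminal oligopyrimidine (TOP) tract, an uninterrupted run of C and T next to the cap, through which mTORC1 signaling and LARP1 control their translation. Growing and activated cells, including lymphocytes after cytokine stimulation, make many ribosomes. The mouse genome also holds a very large number of processed pseudogenes of these genes, which are near-copies of their mRNAs.

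The values were FPKM, the fragments per kilobase of exon, and per total of mapped fragments, so levels are given per length. The steps between the lowest values were those of single reads at an estimated depth of 20.9 to 24.7 M mapped fragments per library (M for 1000000). Summed FPKM per tumor lay between 176419.8, in ACT + IL-2 replicate 2, and 246514, in ACT + NKTR-214 replicate 2. Marker genes of infiltrating cells moved with the groups. All 8 T cell markers passed the test as higher in ACT + NKTR-214, with summed levels of 10.8 to 27.1 FPKM in ACT + IL-2 and 145 to 317 FPKM in ACT + NKTR-214. All 7 macrophage markers were higher too (264 to 777 against 1053 to 1802 FPKM), and 5 of 7 melanocyte markers were lower (5413 to 6933 against 2664 to 3763 FPKM). Their part in the differences described here was not tested.

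The members differed widely in level. Mean FPKM over the 6 tumors ran from 0.386 to 700.4, with a median of 7.76. Among the highest levels were those of *Rpl8*, whose protein lies at the peptidyl transferase centre, with 739.7, 583 and 739.6 FPKM in ACT + IL-2 and 736, 748 and 656 FPKM in ACT + NKTR-214. *Rplp1*, an acidic protein of the stalk that recruits elongation factors, had 373, 286 and 368 FPKM in ACT + IL-2 and 457, 461 and 455 FPKM in ACT + NKTR-214. *Rpl8* overlapped between the groups, whereas *Rplp1* was higher in every ACT + NKTR-214 tumor than in any ACT + IL-2 tumor. The lowest levels were found for *Rpl36a* (0.340, 0.266 and 0.194 FPKM in ACT + IL-2 and 0.247, 0.583 and 0.684 FPKM in ACT + NKTR-214), a large subunit protein of the tRNA exit site. *Rps23*, a small subunit protein near the decoding centre, had 0.451, 0.627 and 0.515 FPKM in ACT + IL-2 and 0.509, 0.442 and 0.529 FPKM in ACT + NKTR-214. *Rps27*, a zinc finger protein of the small subunit, had 0.841, 0.626 and 0.274 FPKM in ACT + IL-2 and 1.39, 1.53 and 0.603 FPKM in ACT + NKTR-214. At the estimated depths these 3 levels stand for 2.0 to 8.1 reads, 5.4 to 7.2 reads and 2.9 to 18.6 reads per 500 bases of exon, so few reads lay behind them. Values in a series of this kind are listed for replicates 1, 2 and 3 of each group, in that order.

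Levels moved with how much of a gene's coding sequence is repeated elsewhere. Each coding sequence was cut into all windows of 50 bases, the read length, and a window was counted as copied where the same 50 bases occur, on either strand, in another annotated gene. Over the 77 members the median share of copied windows was 93.0%, against 0% over the 13823 tested genes with coding windows. At least 50% of the windows were copied in 67 members (87.0%), against 6.90% of all these genes. All windows were copied in 30 members (39.0%), against 1.38%. The windows were found in 1142 other genes, of which 1086 are annotated as pseudogenes, and 4 of those pseudogenes had a row in the expression table. The 50-base windows printed here show both ends of this range. They lie within single coding exons (GRCm38), and the capitals mark the windows that no other annotated gene holds.
Rps20 (in 0 other genes): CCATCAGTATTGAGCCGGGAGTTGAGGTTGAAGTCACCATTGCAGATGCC
Rps3 (in 0 other genes): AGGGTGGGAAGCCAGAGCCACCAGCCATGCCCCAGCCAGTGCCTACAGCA
Rps20 (in 2 other genes): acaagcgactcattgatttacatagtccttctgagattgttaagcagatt
Rpl31 (in 12 other genes): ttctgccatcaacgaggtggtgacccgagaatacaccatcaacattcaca
Rpl21 (in 33 other genes): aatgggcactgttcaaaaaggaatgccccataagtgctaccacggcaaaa

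The *Rps3* window, at chr7:99479280-99479329 (- strand), has no copy, and 8.09% of the coding windows of this gene have one. The *Rps20* windows, at chr4:3834504-3834553 and chr4:3834558-3834607 (- strand), occur in 0 and 2 other genes. The *Rpl31* window at chr1:39368190-39368239 (+ strand) occurs in 12 other genes, and the *Rpl21* window at chr5:146834994-146835043 (+ strand) in 33. The 10 members with under 50% of their windows copied (among them *Rps3*, *Rpl8*, *Rpl4*, *Rpl22*, *Rpl32*, *Rps9*, *Rps15* and *Rps21*) had means between 41.1 and 700.4 FPKM. The 30 members whose windows were all copied had means between 0.386 and 32.6 FPKM, with a median of 2.99. Across the 77 members the share of copied windows and the mean level had a Spearman correlation of -0.81. This is a description across genes, which share libraries and are not independent replicates. How reads that match several places were counted is not given in the sources used here, and the part of such reads in the low levels was not tested.

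**Figure D1:**
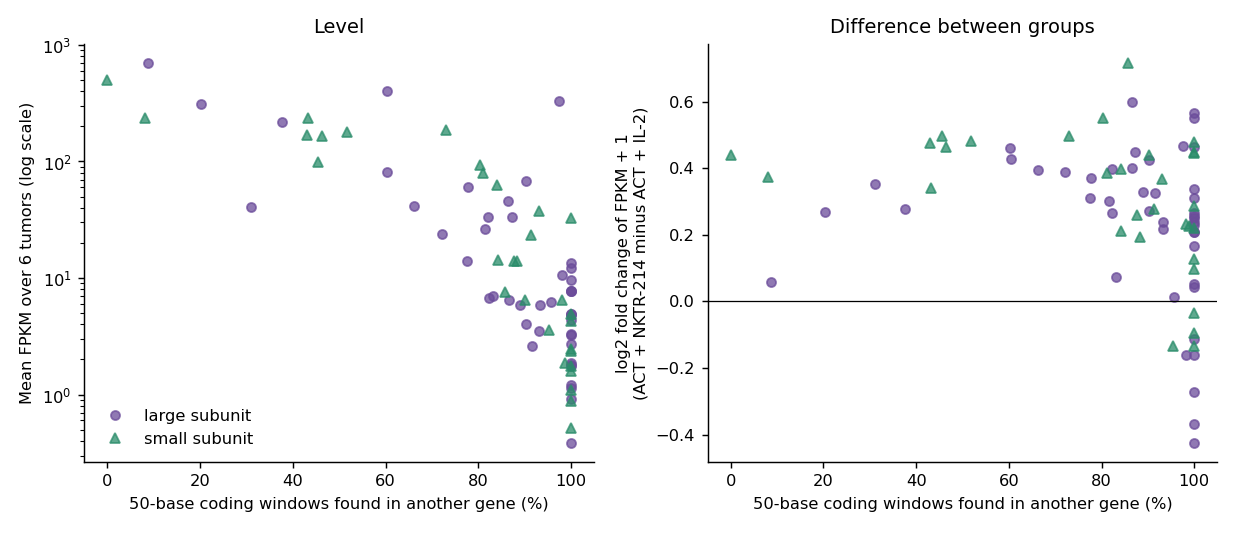
Each point is 1 of the 77 ribosomal protein genes, with circles for the large and triangles for the small subunit. The x axes give the percentage of 50-base coding windows found in another annotated gene, the left y axis the mean FPKM over 6 tumors on a log scale, and the right y axis the log2 fold change of FPKM + 1 (ACT + NKTR-214 minus ACT + IL-2). Levels fall from 700.4 to 0.386 FPKM towards the right, and on FPKM as deposited negative fold changes occur only among genes with at least 95.3% of windows copied.

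Summed over the members, ribosomal protein genes took a larger share of all FPKM in the ACT + NKTR-214 tumors. The share was 1.99%, 2.00% and 2.07% in the ACT + IL-2 tumors (2.02% ± 0.0417, SD, n = 3) and 2.26%, 2.27% and 2.25% in the ACT + NKTR-214 tumors (2.26% ± 0.0101, SD, n = 3). The groups did not overlap, and the difference of the means, 0.240 percentage points, was larger than the spread within either group. The 10 members with few copied windows alone held 1.14%, 1.14% and 1.18% of all FPKM in ACT + IL-2 and 1.26%, 1.25% and 1.23% in ACT + NKTR-214, which again did not overlap. The share does not depend on the scaling of a library, but it also moves with the genes that make up the rest of the sum. Quantile normalization reduced the difference of the means to 0.0635 percentage points.

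**Figure D2:**
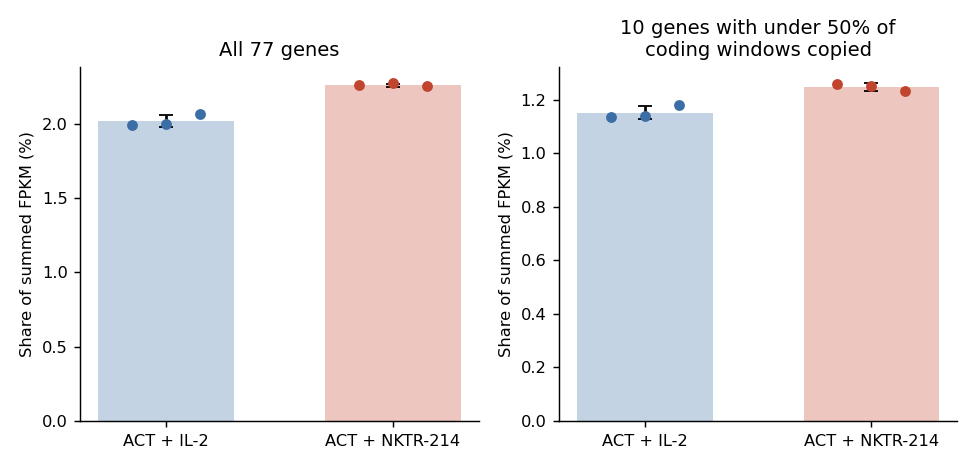
Bars give the mean share of summed FPKM (%) per group, error bars the SD, and points the 3 tumors of each group, for all 77 ribosomal protein genes and for the 10 with under 50% of coding windows copied. In both panels every ACT + NKTR-214 tumor lies above every ACT + IL-2 tumor.

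Gene by gene, 10 of the 77 members were higher in ACT + NKTR-214 and 1 was lower, at a Benjamini-Hochberg adjusted p under 0.05 in limma on log2(FPKM + 1). Over all 14172 genes tested, 20.7% were called higher and 8.28% lower, against 13.0% and 1.30% of the members. The share called higher was thus below that of all genes on FPKM as deposited, and it was above it under 3 of 4 other scalings of the libraries, described after the single genes. Most members nevertheless lay on one side. Of the 77 log2 fold changes, 67 were positive (87.0%) and 10 negative, against 55.7% and 44.3% of all genes tested. In 37 members (48.1%) every ACT + NKTR-214 tumor was above every ACT + IL-2 tumor, against 27.1% of all genes, and in 2 members (2.60%), *Rpl31* and *Rpl15*, every tumor was below, against 15.3%. The median log2 fold change of the members was 0.29, against 0.045 over all genes. At an unadjusted p under 0.05, 28 members were higher (36.4%) and 2 were lower (2.60%), against 26.2% and 13.2% of all genes. The smallest p that an exact permutation test of 3 against 3 tumors allows is 0.1, so that these calls depend on limma's pooling of variance over genes.

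The members were also counted by subunit. Among large subunit proteins 6 of 46 were called higher and 1 lower, and 40 fold changes were positive, with a median of 0.27. Among small subunit proteins 4 of 31 were called higher and 0 lower, and 27 were positive, with a median of 0.37. Over all genes 20.7% were called higher and 8.28% lower. On the TPM scale 12 of 46 large subunit members were higher and 5 lower, and 12 of 31 small subunit members were higher and 1 lower, against 20.5% and 31.3% of all genes. At an unadjusted p under 0.05 the counts were 14 higher and 2 lower, and 14 higher and 0 lower, against the same 26.2% and 13.2% of all genes. The difference between the subunits was not tested.

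**Figure D3:**
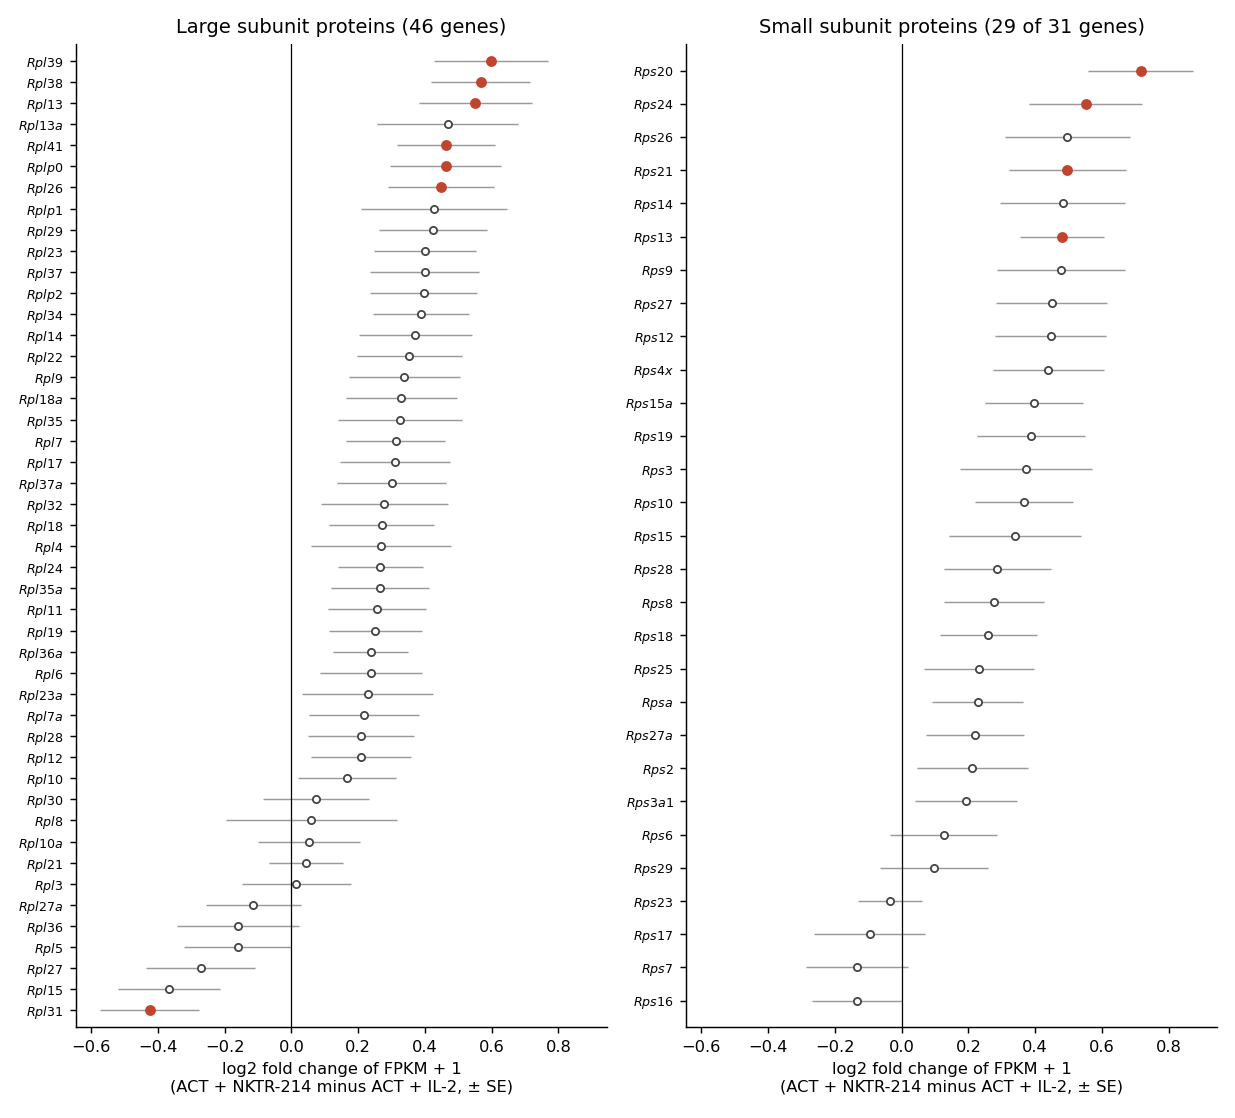
Each row is 1 of 75 of the 77 ribosomal protein genes, by subunit, with its log2 fold change of FPKM + 1 (ACT + NKTR-214 minus ACT + IL-2) on the x axis and bars of 1 SE. Filled points passed the adjusted threshold. Of the fold changes plotted 65 lie to the right of 0, and the filled point to the left is *Rpl31*.

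In the small subunit the largest fold change was that of *Rps20*, which encodes a protein of the head of the subunit (chr4:3831334-3835665, - strand). It measured 5.85, 4.39 and 6.27 FPKM in ACT + IL-2 and 10.1, 9.77 and 8.95 FPKM in ACT + NKTR-214. Each ACT + NKTR-214 tumor was well above each ACT + IL-2 tumor, with a log2 fold change of 0.72 ± 0.16 (SE, limma, adjusted p = 0.00276). *Rps20* was the only member that passed the test under all 21 alternative settings. *Rps24* (chr14:24487125-24496959, + strand), a gene mutated in some families with Diamond-Blackfan anaemia, a failure of red cell production, had 81.9, 61.6 and 83.3 FPKM in ACT + IL-2 and 111, 115 and 105 FPKM in ACT + NKTR-214. Its groups did not overlap either, and the log2 fold change was 0.55 ± 0.17 (SE, limma, adjusted p = 0.0220). *Rps21* (chr2:180257377-180258445, + strand) had 89.3, 66.1 and 90.4 FPKM in ACT + IL-2 and 113, 128 and 105 FPKM in ACT + NKTR-214. The ACT + IL-2 replicate 2 tumor was the lowest of the 6, and the log2 fold change was 0.50 ± 0.18 (SE, limma, adjusted p = 0.0440). *Rps13* (chr7:116331505-116334195, - strand), a protein at the bridge to the large subunit, was low in all tumors with 1.22, 1.04 and 1.22 FPKM in ACT + IL-2 and 2.00, 1.82 and 2.23 FPKM in ACT + NKTR-214. Its log2 fold change was 0.48 ± 0.13 (SE, limma, adjusted p = 0.00881), and it passed in each of the 6 fits that left out 1 tumor. With quantile normalization it was 0.18 and did not pass (adjusted p = 0.216, limma).

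In the large subunit *Rpl39* (chrX:37082520-37085402, - strand), one of the smallest ribosomal proteins, which lines the exit tunnel, led with 6.35, 4.41 and 4.17 FPKM in ACT + IL-2 and 7.44, 9.13 and 7.34 FPKM in ACT + NKTR-214. No ACT + IL-2 tumor reached the level of an ACT + NKTR-214 tumor, and the log2 fold change was 0.60 ± 0.17 (SE, limma, adjusted p = 0.0146). *Rpl38* (chr11:114668524-114672331, + strand), known for its part in the translation of Hox mRNAs in mouse embryos, had 1.35, 0.820 and 1.54 FPKM in ACT + IL-2 and 2.17, 2.09 and 2.60 FPKM in ACT + NKTR-214. Its log2 fold change was 0.57 ± 0.15 (SE, limma, adjusted p = 0.00872), and it passed in all 6 fits that left out 1 tumor. It did not pass with quantile normalization, where the log2 fold change was 0.29 (adjusted p = 0.126, limma), nor with no minimum level (adjusted p = 0.0990, limma). *Rpl13* (chr8:123102350-123105244, + strand) had 4.50, 2.91 and 3.98 FPKM in ACT + IL-2 and 5.34, 6.98 and 5.66 FPKM in ACT + NKTR-214. The gap between the groups was smaller than the spread within each, with a log2 fold change of 0.55 ± 0.17 (SE, limma, adjusted p = 0.0226).

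*Rpl41* (chr10:128548114-128549305, - strand), whose product is the shortest ribosomal protein, had 6.96, 5.61 and 6.56 FPKM in ACT + IL-2 and 9.15, 9.54 and 8.76 FPKM in ACT + NKTR-214. The groups were apart, with a log2 fold change of 0.46 ± 0.15 (SE, limma, adjusted p = 0.0261). *Rplp0* (chr5:115559467-115563727, + strand), the base of the stalk and a gene widely used as a reference in qPCR, had 73.9, 57.4 and 73.1 FPKM in ACT + IL-2 and 97.2, 102 and 82.6 FPKM in ACT + NKTR-214. All ACT + NKTR-214 tumors were above all ACT + IL-2 tumors, with a log2 fold change of 0.46 ± 0.17 (SE, limma, adjusted p = 0.0485), close to the threshold. *Rpl26* (chr11:68901583-68906989, + strand), which also binds the mRNA of p53, had 30.3, 22.4 and 32.0 FPKM in ACT + IL-2 and 36.6, 42.2 and 36.8 FPKM in ACT + NKTR-214. Its log2 fold change was 0.45 ± 0.16 (SE, limma, adjusted p = 0.0453).

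The member called lower was *Rpl31* (chr1:39367842-39371911, + strand), a protein at the rim of the exit tunnel. It measured 9.93, 8.02 and 9.19 FPKM in ACT + IL-2 and 6.76, 6.71 and 5.95 FPKM in ACT + NKTR-214. The groups did not overlap, and the log2 fold change was -0.42 ± 0.15 (SE, limma, adjusted p = 0.0420). All of its coding windows are copied in other genes. *Rpl31* passed in 1 of the 6 fits that left out 1 tumor, the one without ACT + IL-2 replicate 2, and the adjusted p in the others reached 0.155. *Rpl15*, the other member whose tumors did not overlap downwards, named after its values were seen, had 8.75, 8.02 and 9.67 FPKM in ACT + IL-2 and 7.64, 6.07 and 6.16 FPKM in ACT + NKTR-214 and a log2 fold change of -0.37 ± 0.15 (SE, limma, adjusted p = 0.0833).

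**Figure D4:**
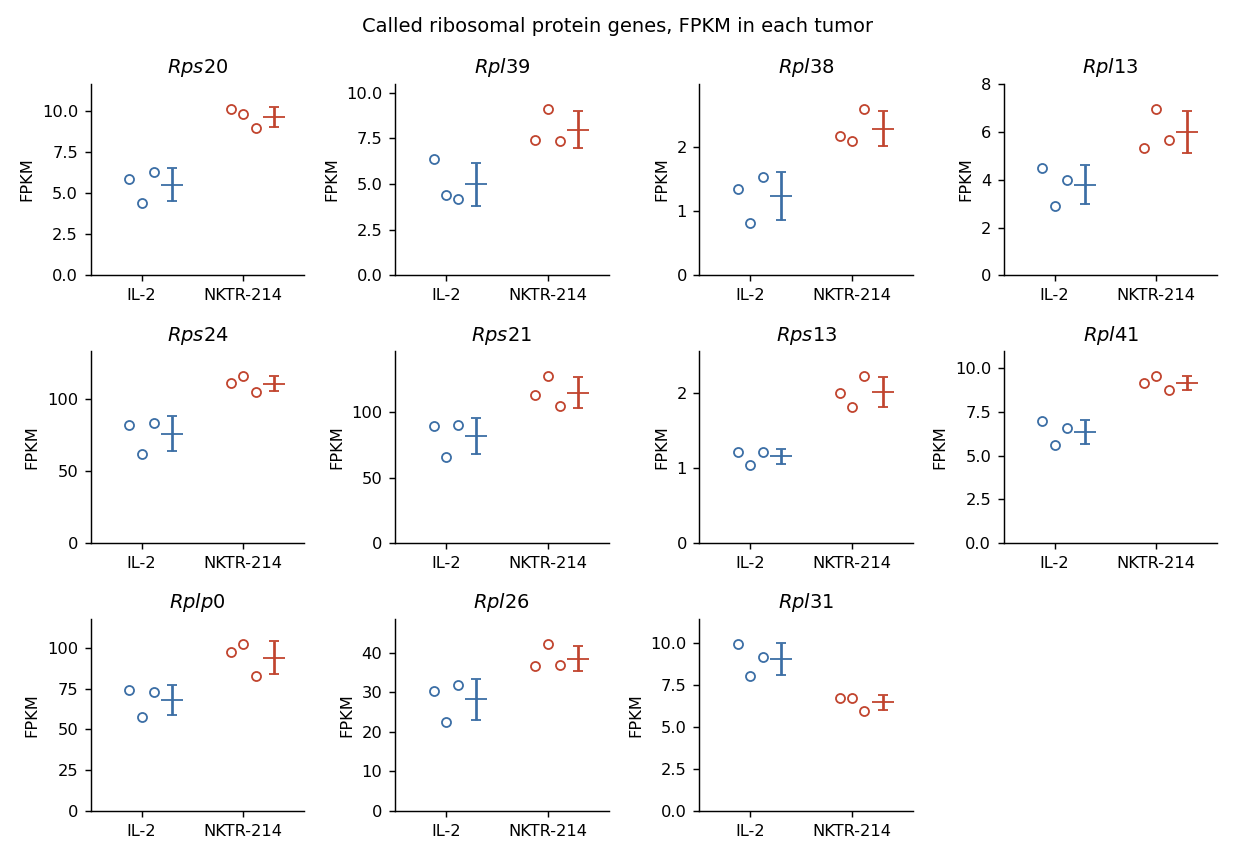
FPKM of the 11 called ribosomal protein genes in each tumor, with 1 panel per gene and y axes from 0. Open circles are tumors, and the bar beside them is the mean with the SD (n = 3). The groups do not overlap in any panel, and *Rpl31* is the panel in which ACT + NKTR-214 is lower.

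Single tumors decided part of these calls. Without ACT + IL-2 replicate 1 there were 20 members higher and 0 lower, against 24.5% and 6.9% of all genes in that fit. Without ACT + NKTR-214 replicate 3 there were 16 and 0, against 23.5% and 7.1%. Without ACT + IL-2 replicate 2, the tumor with the lowest FPKM sum, there were 5 higher and 1 lower, against 14.1% and 14.0%. Without ACT + NKTR-214 replicate 1 there were 6 and 0, against 18.3% and 6.89%, and without its replicate 2 there were 3 and 0, against 17.1% and 4.83%. Without ACT + IL-2 replicate 3 there were 7 and 0, against 17.5% and 4.47%. Of these 6 fits, the one without ACT + IL-2 replicate 1 alone called a larger share of the members than of all genes as higher. *Rps20*, *Rpl38* and *Rps13* passed in all 6 of these fits. *Rps21* and *Rplp0* passed in 2, the fit that dropped replicate 1 of ACT + IL-2 and the one that dropped replicate 3 of ACT + NKTR-214, with limma adjusted p up to 0.188 and 0.205 in the others. *Rpl39*, *Rpl41* and *Rpl26* passed in these and in 1 further fit each. *Rpl13* was lost when replicate 2 of either group was dropped, and *Rps24* when replicate 1 or 2 of ACT + NKTR-214 was.

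The number of calls depended on the scaling of the libraries. Scaling the libraries to a common FPKM sum, called the TPM scale here because the values are then proportional to TPM, shifted the median over all genes by -0.13 (log2). On that scale 24 members were called higher and 6 lower, against 20.5% and 31.3% of all genes, and 61 fold changes were positive and 16 negative, against 41.1% and 58.9% of all genes. In percent the members called were 31.2% higher and 7.79% lower. Scaling to a common 75th percentile called 36 members higher (46.8%) and 3 lower (3.90%), against 23.7% and 24.7% of all genes. Quantile normalization called 24 higher (31.2%) and 8 lower (10.4%), against 19.0% and 31.9%. Under all 21 alternatives the median of the members stayed above the median of all genes, by 0.20 to 0.31. All 11 calls made on FPKM as deposited were also made on the TPM scale, where the log2 fold changes were 0.56 for *Rps20* (adjusted p = 0.00173, limma) and, for *Rpl31*, -0.59 (adjusted p = 0.000948, limma). The 75th percentile scaling kept all 11 as well. Quantile normalization kept 8 of the 10 higher calls, without *Rpl38* and *Rps13*, and that of *Rpl31*. With no minimum level 3 of the 10 were kept, *Rpl41*, *Rps13* and *Rps20*, and *Rpl31* was lost.

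To find members that departed from the rest of the ribosomal proteins, each library was scaled to the geometric mean of the 77 members, which was 12.4, 9.81 and 12.0 FPKM in ACT + IL-2 and 14.4, 14.98 and 13.2 FPKM in ACT + NKTR-214. On this scale 6 members were called higher than the set and 9 lower, against 16.6% and 44.5% of all genes. Those higher were *Rps20*, *Rpl38*, *Rpl13*, *Rps13*, *Rps24* and *Rpl41*, with log2 fold changes from 0.18 to 0.44. Those lower were *Rpl31*, *Rpl15*, *Rpl27*, *Rpl36*, *Rpl27a*, *Rpl5*, *Rps7*, *Rps16* and *Rpl10a*, from -0.71 to -0.24. None of these 15 members had under 50% of its windows copied, and their mean levels ran from 1.59 FPKM (*Rps13*) to 93.0 FPKM (*Rps24*). The 10 members with few copied windows had positive fold changes from 0.059 to 0.50 on FPKM as deposited, and 1 of them, *Rpl8*, turned negative on the TPM scale.

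The other members of known role were followed whether or not they passed. In the stalk, *Rplp1* had a log2 fold change of 0.43 ± 0.22 (SE, limma, adjusted p = 0.164). *Rplp2*, its partner, had 38.3, 28.4 and 40.5 FPKM in ACT + IL-2 and 47.7, 49.6 and 43.3 FPKM in ACT + NKTR-214 and a log2 fold change of 0.40 ± 0.16 (SE, limma, adjusted p = 0.0773). Together with *Rplp0*, all 3 stalk genes were thus higher in every ACT + NKTR-214 tumor than in any ACT + IL-2 tumor, as were 48.1% of the members and 27.1% of all genes, while *Rplp0* alone passed the test. On the TPM scale *Rplp2* passed as well, at 0.22 (adjusted p = 0.0310, limma).

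Among small subunit proteins, *Rps3*, a protein at the mRNA entry channel that also acts in DNA repair, had 227, 173 and 223 FPKM in ACT + IL-2 and 279.5, 279 and 245 FPKM in ACT + NKTR-214. Its groups did not overlap, and its log2 fold change was 0.37 ± 0.20 (SE, limma, adjusted p = 0.176). *Rps19*, the gene most often mutated in Diamond-Blackfan anaemia, had 73.3, 58.8 and 74.9 FPKM in ACT + IL-2 and 90.0, 98.2 and 82.5 FPKM in ACT + NKTR-214 and a log2 fold change of 0.39 ± 0.16 (SE, limma, adjusted p = 0.0878). Both members were separated between the groups and missed the threshold, which *Rps19* passed on the TPM scale, at 0.21 (adjusted p = 0.0279, limma).

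*Rps6*, the substrate of the S6 kinases downstream of mTORC1, had 4.54, 3.44 and 4.15 FPKM in ACT + IL-2 and 4.94, 4.88 and 3.71 FPKM in ACT + NKTR-214 with a log2 fold change of 0.13 ± 0.16 (SE, limma, adjusted p = 0.605). *Rpsa*, the laminin receptor protein of the small subunit, had 1.94, 1.52 and 1.49 FPKM in ACT + IL-2 and 2.07, 2.36 and 1.88 FPKM in ACT + NKTR-214 with a log2 fold change of 0.23 ± 0.14 (SE, limma, adjusted p = 0.234). *Rps27a*, made as a fusion with ubiquitin, had 2.60, 1.96 and 1.80 FPKM in ACT + IL-2 and 2.90, 2.44 and 2.51 FPKM in ACT + NKTR-214 with a log2 fold change of 0.22 ± 0.15 (SE, limma, adjusted p = 0.294). In all 3 the groups overlapped. The lowest small subunit members, *Rps23* and *Rps27*, had log2 fold changes of -0.035 ± 0.0961 (SE, limma, adjusted p = 0.825) and of 0.45 ± 0.17 (SE, limma, adjusted p = 0.0556).

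Among large subunit proteins, *Rpl5* and *Rpl11* bind 5S rRNA and hold Mdm2, the ligase that degrades p53. *Rpl5* had 4.02, 2.68 and 3.86 FPKM in ACT + IL-2 and 2.95, 3.29 and 2.79 FPKM in ACT + NKTR-214 and a log2 fold change of -0.16 ± 0.16 (SE, limma, adjusted p = 0.494). *Rpl11* had 1.47, 1.46 and 1.84 FPKM in ACT + IL-2 and 1.63, 2.61 and 2.11 FPKM in ACT + NKTR-214 and a log2 fold change of 0.26 ± 0.15 (SE, limma, adjusted p = 0.211). Their signs differed, and neither passed on FPKM as deposited. *Rpl5* passed as lower on the TPM scale, at -0.30 (adjusted p = 0.0252, limma), and with quantile normalization, at -0.37 (adjusted p = 0.0135, limma).

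*Rpl3*, which reaches into the peptidyl transferase centre, had 7.08, 5.56 and 5.77 FPKM in ACT + IL-2 and 5.90, 7.47 and 5.33 FPKM in ACT + NKTR-214 and a log2 fold change of 0.014 ± 0.16 (SE, limma, adjusted p = 0.962). *Rpl10*, which is added last during maturation, had 4.67, 4.21 and 4.96 FPKM in ACT + IL-2 and 5.47, 5.39 and 5.003 FPKM in ACT + NKTR-214 and a log2 fold change of 0.17 ± 0.15 (SE, limma, adjusted p = 0.440). *Rpl8* had a log2 fold change of 0.059 ± 0.26 (SE, limma, adjusted p = 0.892). In *Rpl3* and *Rpl8* the SE was larger than the fold change, and *Rpl10* was slightly higher in every ACT + NKTR-214 tumor without passing. With quantile normalization *Rpl8* passed as lower, at -0.52 (adjusted p = 0.0164, limma).

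*Rpl13a*, which is released from the ribosome during the interferon-γ response of monocytes to silence inflammatory mRNAs, had 305, 234 and 293 FPKM in ACT + IL-2 and 397, 402 and 347 FPKM in ACT + NKTR-214 and a log2 fold change of 0.47 ± 0.21 (SE, limma, adjusted p = 0.112). *Rpl22*, which is needed for the development of αβ T cells, had 39.6, 28.8 and 40.0 FPKM in ACT + IL-2 and 48.4, 45.8 and 43.9 FPKM in ACT + NKTR-214 and a log2 fold change of 0.35 ± 0.16 (SE, limma, adjusted p = 0.108). Both were higher in every ACT + NKTR-214 tumor and missed the threshold, which *Rpl13a* passed on the TPM scale, at 0.29 (adjusted p = 0.0191, limma). *Rpl36a*, the lowest member, had a log2 fold change of 0.24 ± 0.11 (SE, limma, adjusted p = 0.131). With 1 tumor left out it ran from 0.15 to 0.37, and it passed only without ACT + NKTR-214 replicate 1 (adjusted p = 0.0209, limma).

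Fold changes were also described by level. The 29 members with a mean of at least 20 FPKM, a bound chosen after the values were seen, all had positive log2 fold changes, from 0.059 (*Rpl8*) to 0.55 (*Rps24*), and in 24 of them the groups did not overlap, against 27.1% of all genes. The number positive was 28 on the TPM scale and for a common 75th percentile and 27 with quantile normalization. Of these 29 members 4 were called higher and 0 lower (20.7% and 8.28% of all genes), and 15 and 0 on the TPM scale (20.5% and 31.3% of all genes). Since the bound was set with these values in view, nothing is read from the counts. The 48 members below this level ran from -0.42 to 0.72, with 38 positive, and the groups did not overlap in 13 upwards and 2 downwards. By copied windows, all 10 members under 50% were positive, 35 of 37 from 50% to under 100%, and 22 of the 30 with all windows copied. These counts were 9, 33 and 19 on the TPM scale, and 8, 32 and 13 with quantile normalization. The Spearman correlation of fold change and share of copied windows was -0.45 over the 77 members, a description across genes. Level and copied share moved together, so that their parts cannot be told apart here.

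The sequence around the annotated start was examined because the TOP tract is the shared feature of these mRNAs. RefSeq start regions on GRCm38 (250 bases before to 50 bases after the start) were matched by symbol for 57 of the 77 members and for 27025 genes in all. A run of at least 8 pyrimidines on the coding strand, from 30 bases before to 50 bases after the start, occurred in 45 of the 57 members (78.9%), against 32.3% of all genes. Runs of at least 8 purines in the same stretch occurred in 9 (15.8%), against 35.2%. The motif CCGGAAG, the core of ETS factor sites, was found on either strand in 24 members (42.1%), against 9.93%. TATAAA on either strand was found in 6 (10.5%), against 15.7%, and CCAAT in 18 (31.6%), against 41.1%. CACGTG, the E-box bound by Myc, was found in 6 (10.5%), against 8.09%. CTCTTTC on the coding strand, which can lie within a pyrimidine run, was found in 13 (22.8%), against 4.60%.

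The windows of 30 bases printed here come from the called members with a RefSeq start region, and the capitals mark the longest pyrimidine run within the searched stretch.
Rpl39: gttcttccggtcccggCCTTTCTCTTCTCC
Rpl38: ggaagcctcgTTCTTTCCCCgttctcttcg
Rpl13: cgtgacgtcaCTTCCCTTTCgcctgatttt
Rps24: ggtcctcttTTCCTCCTCTCCagctccggc
Rps21: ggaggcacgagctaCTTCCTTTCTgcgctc
Rps13: tgagtggcgtcaCTTCCTgtgcggcttgat
Rpl41: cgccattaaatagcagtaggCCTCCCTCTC
Rplp0: ggaccgcctggTTCTCCTataaaaggcaca
Rpl26: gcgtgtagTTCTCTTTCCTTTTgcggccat
Rpl31: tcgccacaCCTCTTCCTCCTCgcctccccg

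*Rps20* had no entry. Runs of at least 8 pyrimidines were present in 8 of these 10 genes, while the longest were of 7 bases in *Rplp0* and 6 in *Rps13*. *Rpl31*, the member called lower, carried a run of 13. Such a run is a match of letters near an annotated start and was not tied to a measured cap site. The marked runs began before that start in *Rps24* (-30 bases), *Rpl31* (-18), *Rpl13* (-16) and *Rpl38* (-2). They began after it in *Rplp0* (11), *Rps13* (12), *Rpl26* (21), *Rps21* (34), *Rpl39* (36) and *Rpl41* (40). They were not shown to be TOP tracts, which lie next to the cap.

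On GRCm38.p6 these windows lie at chrX:37085173-37085202 (- strand) for *Rpl39*, chr11:114668568-114668597 (+ strand) for *Rpl38*, chr8:123102324-123102353 (+ strand) for *Rpl13*, chr14:24490714-24490743 (+ strand) for *Rps24*, chr2:180257399-180257428 (+ strand) for *Rps21*. The others lie at chr7:116334161-116334190 (- strand) for *Rps13*, chr10:128549119-128549148 (- strand) for *Rpl41*, chr5:115559467-115559496 (+ strand) for *Rplp0*, chr11:68901579-68901608 (+ strand) for *Rpl26* and chr1:39367825-39367854 (+ strand) for *Rpl31*.

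Cytosolic ribosomal proteins whose symbols are not *Rpl* or *Rps* were measured separately. *Rack1*, the scaffold at the head of the small subunit, had 615, 474 and 611 FPKM in ACT + IL-2 and 667, 662 and 608 FPKM in ACT + NKTR-214 and a log2 fold change of 0.20 ± 0.25 (SE, limma, adjusted p = 0.597). *Fau*, whose product is cut to give the protein eS30, had 2.05, 1.71 and 1.82 FPKM in ACT + IL-2 and 2.38, 2.16 and 2.68 FPKM in ACT + NKTR-214 and a log2 fold change of 0.25 ± 0.14 (SE, limma, adjusted p = 0.187). Both fold changes were positive and neither passed on FPKM as deposited, while *Rack1* passed as lower with quantile normalization, at -0.42 (adjusted p = 0.0319, limma). *Rack1* had 1.44% of its windows copied, while *Fau* had 100%.

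The paralogs of the members had fold changes of both signs. Of 8 listed, 7 were tested and 1 was called higher, *Rpl39l*, a paralog of *Rpl39* best known in male germ cells, with 0.104, 0.0542 and 0 FPKM in ACT + IL-2 and 0.151, 0.713 and 0.418 FPKM in ACT + NKTR-214. Its level was low, and the log2 fold change was 0.42 ± 0.12 (SE, limma, adjusted p = 0.0141). *Rps27l*, a p53 target, was the most abundant paralog with 68.8, 52.3 and 61.6 FPKM in ACT + IL-2 and 54.9, 51.2 and 48.7 FPKM in ACT + NKTR-214 and a log2 fold change of -0.23 ± 0.15 (SE, limma, adjusted p = 0.301). *Rpl22l1*, the paralog that *Rpl22* represses, had 3.52, 2.23 and 4.11 FPKM in ACT + IL-2 and 4.73, 4.70 and 4.57 FPKM in ACT + NKTR-214 and a log2 fold change of 0.43 ± 0.17 (SE, limma, adjusted p = 0.0790). *Rpl7l1* had a log2 fold change of -0.21 ± 0.14 (SE, limma, adjusted p = 0.298), *Rpl36al* of 0.04 ± 0.17 (SE, limma, adjusted p = 0.891) and *Rpl3l*, the muscle form of *Rpl3*, of -0.081 ± 0.11 (SE, limma, adjusted p = 0.620). *Rps27l* and *Rpl7l1* passed as lower on the TPM scale, with fold changes of -0.41 and -0.38 (adjusted p = 0.00216 and 0.00514, limma). *Rpl10l* was listed at 0 in all tumors.

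Rows of near-identical sequence carried nearly the same values. *Rps27rt*, a retrocopy of *Rps27*, was 0.285% to 0.298% above *Rps27* in every tumor, so that the 2 rows cannot be read as separate measurements. Pseudogene rows named after members were *Rpl34-ps1* and *Rpl31-ps12*. *Rpl34-ps1* had 31.6, 23.7 and 29.9 FPKM in ACT + IL-2 and 40.1, 40.8 and 38.2 FPKM in ACT + NKTR-214, higher in each tumor than *Rpl34* itself (23.0, 17.6 and 21.4 FPKM in ACT + IL-2 and 27.5, 28.2 and 25.9 FPKM in ACT + NKTR-214). Its log2 fold change was 0.48 ± 0.15 (SE, limma, adjusted p = 0.0244), against 0.39 ± 0.15 (SE, limma, adjusted p = 0.0566) for *Rpl34*. Reads of such pairs may be split or shared by the counting, and these rows are uncertain for that reason. *Rpl31-ps12* was listed at 0 in all tumors.

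The lists of other translation and protein turnover genes had medians between -0.15 and 0.17, against 0.29 for the members. For comparison, 20.7% of all genes were called higher and 8.28% lower. At an unadjusted p under 0.05 in limma these shares were 26.2% and 13.2%. Of 8 elongation factors 7 were positive (87.5%, against 55.7% of all genes) and 0 passed the limma test in either direction, also at an unadjusted p under 0.05, with a median log2 fold change of 0.17. Of 14 further genes with TOP mRNAs 8 were positive and 0 passed (1 higher and 1 lower unadjusted), with a median of 0.055. Of 53 initiation factors 23 were positive, and 0 were called higher and 2 lower (2 and 4 unadjusted), with a median of -0.051. The 2 were *Eif2ak2*, the interferon-inducible kinase PKR that phosphorylates eIF2α (18.3, 15.8 and 18.9 FPKM in ACT + IL-2 and 11.7, 11.1 and 13.1 FPKM in ACT + NKTR-214), and *Eif4g1*, the scaffold of the cap-binding complex (142, 118 and 139 FPKM in ACT + IL-2 and 103, 89.1 and 93.6 FPKM in ACT + NKTR-214). Their log2 fold changes were -0.53 ± 0.14 (SE, limma, adjusted p = 0.0107) and -0.48 ± 0.17 (SE, limma, adjusted p = 0.0410), and the groups were apart in both.

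Genes that build ribosomes gave 1 call in each direction among 50 tested, of which 18 were positive, with a median of -0.030. Of all genes 20.7% were called higher, 8.28% were called lower and 55.7% were positive. *Riok1*, a kinase of late small subunit maturation, had 6.18, 4.73 and 6.22 FPKM in ACT + IL-2 and 9.64, 8.48 and 6.93 FPKM in ACT + NKTR-214 and a log2 fold change of 0.48 ± 0.16 (SE, limma, adjusted p = 0.0399). *Bop1*, a factor of large subunit rRNA processing, had 39.2, 31.9 and 35.7 FPKM in ACT + IL-2 and 28.8, 25.7 and 25.0 FPKM in ACT + NKTR-214 and a log2 fold change of -0.41 ± 0.14 (SE, limma, adjusted p = 0.0425). The 15 genes of RNA polymerase I, which transcribes rRNA, had 9 positive fold changes, 0 calls in limma (0 higher and 2 lower unadjusted) and a median of 0.049. The 15 chaperone and surveillance genes had 6 positive fold changes, 0 calls (1 higher and 1 lower unadjusted) and a median of -0.042.

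The mitochondrial ribosomal proteins and the proteasome subunits had medians below 0. The counts stand beside 20.7% called higher, 8.28% called lower and 55.7% positive over all genes. Of 78 mitochondrial ribosomal protein genes 1 was called higher and 1 lower, 23 were positive, and the median was -0.081. *Mrps16* was the one higher (27.6, 20.4 and 22.8 FPKM in ACT + IL-2 and 32.8, 33.4 and 29.2 FPKM in ACT + NKTR-214) with 0.42 ± 0.15 (SE, limma, adjusted p = 0.0457). *Mrpl12* was the one lower (60.9, 46.9 and 61.4 FPKM in ACT + IL-2 and 43.4, 40.7 and 39.3 FPKM in ACT + NKTR-214) with -0.44 ± 0.15 (SE, limma, adjusted p = 0.0444). Of 38 proteasome subunit genes 1 was higher and 2 were lower, 11 were positive, and the median was -0.15. *Psmb8*, the interferon-induced subunit of the immunoproteasome, was the one higher (144, 111 and 113 FPKM in ACT + IL-2 and 198, 200.1 and 176 FPKM in ACT + NKTR-214) with 0.64 ± 0.18 (SE, limma, adjusted p = 0.0136). *Psmd1* and *Psmc5*, subunits of the regulatory cap, were lower with log2 fold changes of -0.49 ± 0.15 (SE, limma, adjusted p = 0.0210) and -0.44 ± 0.16 (SE, limma, adjusted p = 0.0494). On the TPM scale 45 of 78 mitochondrial ribosomal protein genes, 27 of 38 proteasome subunit genes, 25 of 53 initiation factors and 23 of 50 ribosome biogenesis genes passed as lower, against 6 of 77 cytosolic ribosomal protein genes and 31.3% of all genes. So did 2 of 8 elongation factors, 4 of 14 further genes with TOP mRNAs, 5 of 15 genes of RNA polymerase I and 7 of 15 chaperone and surveillance genes, while 1 of the latter passed as higher.

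**Figure D5:**
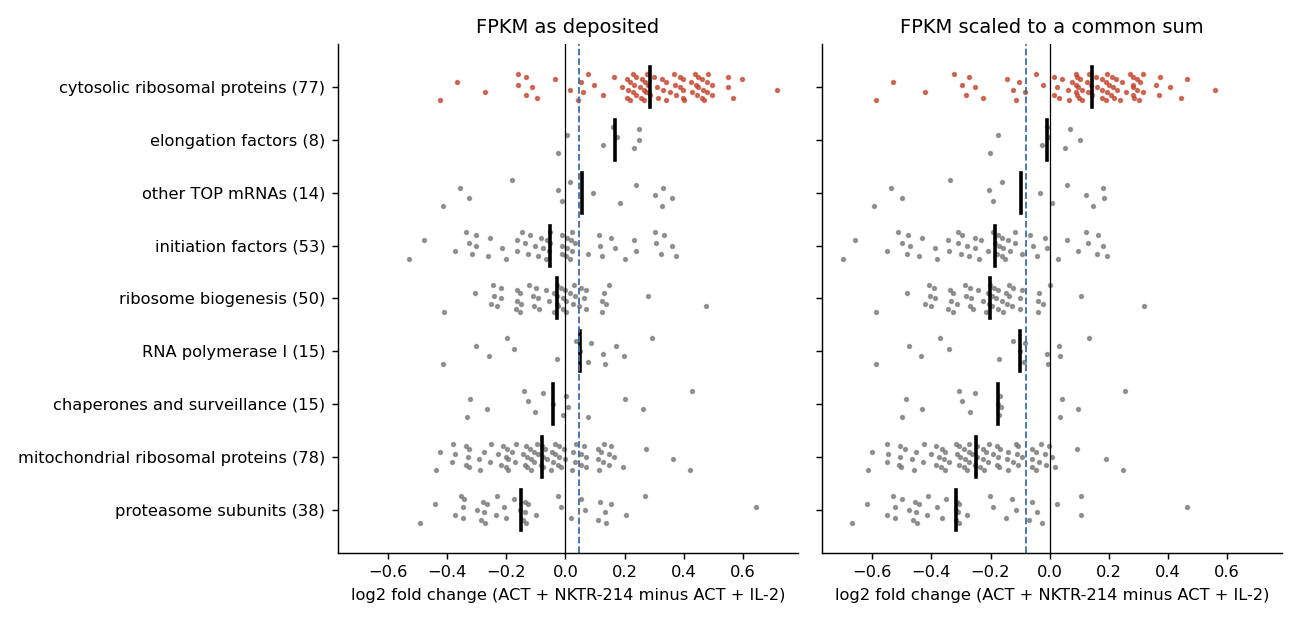
Each point is a gene, placed on the x axis by its log2 fold change of FPKM + 1 (left) or of the same values after scaling to a common FPKM sum (right, TPM scale), ACT + NKTR-214 minus ACT + IL-2. Rows are gene lists with the number of genes tested, black bars are medians and the dashed line is the median of all genes tested. Cytosolic ribosomal proteins have medians of 0.29 and 0.14, to the right of the dashed line (0.045 and -0.081) in both panels.

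Of 20 regulators of ribosome production and translation, 4 were higher and 1 was lower (20.7% and 8.28% of all genes), with a median of -0.044. On the TPM scale 3 were higher and 9 lower (20.5% and 31.3% of all genes), with a median of -0.22. *Pdcd4*, an inhibitor of eIF4A, had 5.48, 4.74 and 6.66 FPKM in ACT + IL-2 and 16.3, 17.8 and 12.5 FPKM in ACT + NKTR-214 and a log2 fold change of 1.32 ± 0.17 (SE, limma, adjusted p = 2.35e-05). *Mycn*, a relative of Myc, measured 0.0323, 0 and 0.0923 FPKM in ACT + IL-2 and 0.891, 0.823 and 1.17 FPKM in ACT + NKTR-214 and a log2 fold change of 0.91 ± 0.0990 (SE, limma, adjusted p = 5.36e-06). *Larp4*, a poly(A) tail-binding protein, was lower (7.73, 6.40 and 8.53 FPKM in ACT + IL-2 and 4.90, 4.38 and 5.01 FPKM in ACT + NKTR-214) with -0.56 ± 0.15 (SE, limma, adjusted p = 0.0118). *Myc*, the transcription factor that drives ribosomal protein genes, had 26.1, 20.9 and 32.3 FPKM in ACT + IL-2 and 30.8, 34.4 and 31.2 FPKM in ACT + NKTR-214 and a log2 fold change of 0.29 ± 0.16 (SE, limma, adjusted p = 0.198). *Larp1*, which binds TOP mRNAs, had 51.7, 42.9 and 52.3 FPKM in ACT + IL-2 and 49.5, 45.1 and 49.0 FPKM in ACT + NKTR-214 and a log2 fold change of -0.027 ± 0.15 (SE, limma, adjusted p = 0.916). *Eif4ebp1*, the mTORC1 target that holds back eIF4E, had 79.8, 64.7 and 92.4 FPKM in ACT + IL-2 and 98.5, 96.8 and 110.0 FPKM in ACT + NKTR-214 and a log2 fold change of 0.37 ± 0.17 (SE, limma, adjusted p = 0.117). The groups overlapped for *Myc* and *Larp1*, and none of these last 3 genes passed.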

How the data were processed

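Whole B16-F10 tumors of 3 mice per group were compared. The authors mapped 50-base single-end reads to GRCm38 with HISAT2 2.0.4, and counted them with HTSeq, and the deposited values are linear FPKM. How strand and reads with several matches were handled is not given in the sources used here. Replicates are tumors of separate mice.

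All 6 columns were used. The scale was log2(FPKM + 1). Testing took the 14172 genes averaging 0.1 FPKM or more. Limma 3.58.1 (R 4.3.3, lmFit and eBayes with trend) compared the groups, with Benjamini-Hochberg adjustment over all genes tested and a threshold of 0.05. This understates changes of low genes. The sign is ACT + NKTR-214 minus ACT + IL-2. The fit was checked on a simulation of 14172 genes with 200 changed, of which it called 187, and 10 others. The simulated shifts were larger than the fold change of any member, and the noise was drawn separately for each gene. The check therefore does not give the share of changes as small as those of the members that the fit finds. Depth was estimated from the value of 1 read in low genes with 1 transcript, of which 49.1% lay at the common value, and is approximate.

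Coding windows used the shortest consensus coding transcript of GENCODE vM21, and tables and plots were made in Python 3.11.15 (numpy 2.4.6, matplotlib 3.10.9, pandas 2.3.3). Start regions came from RefSeq on GRCm38.p6. No whole genome and no protein sequences were used here.

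The members, lists and tests were chosen with earlier results of these data known. Genes named were the called members (up to 10 in each direction), the 3 highest and 3 lowest by level, members of known role, further cytosolic ribosomal proteins and paralogs, up to 2 called genes per direction of each other list, and *Myc*, *Larp1* and *Eif4ebp1*. A few genes that this rule takes are not reported here, though sums and counts over the members hold them. Alternative settings used 0.1 as pseudocount, a minimum mean of 1 and none, 4 scalings, eBayes without trend, the replicate number as a block and each tumor left out. The TPM scale with each tumor left out was added after seeing the data.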

Additional observations from a re-analysis of the deposited data

How the results depend on the processing

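On FPKM as deposited 10 ribosomal protein genes were higher and 1 lower, against 20.7% and 8.28% of all genes. The counts were 24 and 6 on the TPM scale (20.5% and 31.3% of all genes). They were 36 and 3 for a common 75th percentile (23.7% and 24.7%) and 24 and 8 with quantile normalization (19.0% and 31.9%). Ribosomal protein scaling gave 6 and 9 (16.6% and 44.5%), no minimum level 3 and 0, and eBayes without trend 20 and 1. Leaving out 1 tumor gave 3 to 20 higher and 0 to 1 lower, against 14.1% to 24.5% and 4.47% to 14.0% of all genes. On the TPM scale it gave 7 to 20 higher (17 in 3 of the fits) and 3 to 6 lower (4 in 4 of the fits). With the replicate number as a block there were 12 higher and 0 lower. For no minimum level, eBayes without trend, the block and the TPM scale with 1 tumor left out, no share over all genes was taken. Those counts are therefore not set against one. Same-numbered tumors had deviations correlated at -0.21, -0.067 and 0.40. The tumors came from different mice, so the main fit did not pair them by number. Whether same-numbered tumors shared a batch was not tested. The median log2 fold change of the members, 0.29, was 0.37 with a pseudocount of 0.1, 0.14 on the TPM scale, 0.098 with quantile normalization, 0.045 with ribosomal protein scaling, 0.21 to 0.34 with 1 tumor left out and 0.13, 0.14, 0.15, 0.15, 0.16 and 0.16 with 1 tumor left out on the TPM scale. It kept its sign in these fits, of which ribosomal protein scaling centres the members near 0 by its construction and says nothing of stability. The difference in share, 0.240 percentage points, was 0.0635 after quantile normalization and 0.227 to 0.264 with 1 tumor left out. The cause of these shifts was not tested.

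Single genes changed sign as follows, and *Rpl8* and *Rack1* passed as lower with quantile normalization (limma, adjusted p = 0.0164 and 0.0319). On the TPM scale the log2 fold changes of *Rpl8*, *Rps6*, *Rpl3* and *Rpl36al* were -0.12, -0.021, -0.14 and -0.080. With 75th percentile scaling *Rpl8*, *Rpl3* and *Rpl36al* were at -0.026, -0.059 and -0.012. With quantile normalization *Rpl8*, *Rpsa*, *Rps6*, *Rps27a*, *Rpl3*, *Rpl11*, *Fau*, *Rack1* and *Rpl36al* were at -0.52, -0.076, -0.033, -0.060, -0.11, -0.028, -0.033, -0.42 and -0.21. With ribosomal protein scaling *Rpl8*, *Rps6*, *Rps27a*, *Rpl3*, *Rpl10*, *Rack1*, *Rpl36al* and *Myc* were at -0.26, -0.13, -0.0044, -0.26, -0.10, -0.12, -0.18 and -0.017. With 1 tumor left out *Rpl8* ran from -0.055 to 0.12, *Rps23* from -0.073 to 0.0097, *Rpl3* from -0.11 to 0.11, *Rpl3l* from -0.19 to 0.010, *Rpl36al* from -0.16 to 0.16 and *Larp1* from -0.12 to 0.022. The other genes that the rule for named genes takes kept their direction. Of members named outside it, *Rpl10a* and *Rpl21* turned from 0.052 and 0.044 to -0.12 and -0.047 on the TPM scale and to -0.061 and -0.23 with quantile normalization, *Rpl10a* to -0.026 with 75th percentile scaling, and *Rpl10a*, *Rpl21*, *Rpl4* and *Rpl32* to -0.24, -0.11, -0.051 and -0.042 with ribosomal protein scaling. Of the genes outside the set that the rule takes, *Pdcd4* and *Mycn* passed in all 6 fits with 1 tumor left out, *Rpl39l* in 5, and the others called passed in 1 to 4.

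The levels of members under 1 FPKM rest on few reads, and without counts no counting interval was given. The values of members whose sequence is copied elsewhere are uncertain too, since the counting of reads with several matches is not given. Its effect was not tested.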

Other observations

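Further regulators of ribosome production that passed the test were the Myc relatives *Mxd1* and *Mycl*, named after their values were seen. *Mxd1*, an antagonist of Myc, had 4.76, 3.22 and 4.90 FPKM in ACT + IL-2 and 6.88, 7.85 and 6.27 FPKM in ACT + NKTR-214 and a log2 fold change of 0.61 ± 0.17 (SE, limma, adjusted p = 0.0128). *Mycl* had 0.493, 0.299 and 0.144 FPKM in ACT + IL-2 and 0.887, 0.943 and 0.346 FPKM in ACT + NKTR-214 and a log2 fold change of 0.38 ± 0.14 (SE, limma, adjusted p = 0.0478). Both were higher in ACT + NKTR-214, *Mycl* at a low level.

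The remaining cell type markers bear on the makeup of the tumors from which the ribosomal protein values come. Of 4 NK cell markers 3 were higher in ACT + NKTR-214, with summed levels of 0.855 to 2.81 FPKM in ACT + IL-2 and 8.63 to 19.1 FPKM in ACT + NKTR-214. Of 5 neutrophil markers 4 were tested and all 4 were higher, while the defining marker *Ly6g* was listed at 0 in 5 of 6 tumors. Of 6 fibroblast markers 5 were higher, with summed levels that overlapped (216 to 645 FPKM in ACT + IL-2 and 578 to 1160.0 FPKM in ACT + NKTR-214). Of 4 endothelial markers 1 was higher, and of 4 skeletal muscle markers 3 were lower. Of 4 B cell markers 2 were tested and 0 passed in limma, also at an unadjusted p under 0.05, with summed levels of 0.850 to 1.97 FPKM in ACT + IL-2 and 0.960 to 1.54 FPKM in ACT + NKTR-214, and 0 of 3 erythroid markers passed. On the TPM scale 2 of 6 fibroblast markers and 6 of 7 macrophage markers passed as higher and 7 of 7 melanocyte markers as lower. The part of these shifts in the ribosomal protein values was not tested.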
